A study of Mus musculus with 6 samples.

Results

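The expression of 8 genes that carry, convert and read thyroid hormone was followed in mouse gastrocnemius, the large calf muscle, from the end of gestation to adulthood. The genes were taken by symbol from a table of 23367 gene entries, and all 8 were found there: the receptors Thra and Thrb, the deiodinases Dio2 and Dio3, the transporter Slc16a10, and the retinoid X receptors Rxra, Rxrb and Rxrg. All mice were wild type and of the FVB strain. Polyadenylated RNA was sequenced in 6 libraries, 1 each for E18.5 (embryonic day), PN2 (postnatal day), PN28 and adult (22 weeks), and 2 for PN14. The E18.5 library pooled male and female mice and the PN2 library pooled male mice, while each library at PN14, PN28 and 22 weeks came from 1 male. With 1 library at most stages, the spread between animals was measured only at PN14, and at each other stage the animal, the library and the age cannot be told apart.

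Thyroid hormone leaves the gland mostly as thyroxine and enters cells through membrane transporters, among them the product of Slc16a10 (MCT10, which also carries aromatic amino acids). Inside the cell, type 2 deiodinase (Dio2) makes the active hormone triiodothyronine, and type 3 deiodinase (Dio3) inactivates both hormones. The receptors encoded by Thra and Thrb sit on target genes as partners of a retinoid X receptor (RXR), and in skeletal muscle the hormone is known to drive the exchange of developmental for adult fast myosins.

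The 6 libraries held between 125402932 and 157868359 counts on genes, so that 3 counts corresponded to between 0.019 and 0.0239 CPM (counts scaled to a common library total). The skeletal actin gene Acta1 stood at 11979 to 37682 FPKM (fragments per kilobase of gene relative to the library total, a level per length) and the muscle creatine kinase gene Ckm at 4189 to 21722 FPKM, so the defining markers of the labelled tissue were abundant. The scaling factors of edgeR's TMM method (which aligns the bulk of genes between libraries) fell from 1.45 at E18.5 and at PN2 to 0.714 in the adult. Relative to TMM, scaling by library size alone moved the median log2 difference of all 16882 genes tested from -0.01 to -0.66 between PN2 and PN14 and from -0.05 to -1.08 between E18.5 and adult. FPKM levels follow the library size, whereas differences and tests below follow TMM unless stated, and a call here needs both a log2 difference of at least 1 in size and a value under 0.05 for p in edgeR's quasi-likelihood test after Benjamini-Hochberg adjustment over all genes tested. In whole tissue, fewer cells of a type and less RNA per cell cannot be told apart.

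All 8 genes passed the filter on low counts. Between PN2 and PN14, 2 of the 8 rose (Thrb and Slc16a10) and none fell, against 23.0% of all genes tested that were called in this interval (11.8% rose and 11.2% fell). Between E18.5 and adult, 4 of the 8 rose (Thrb, Slc16a10, Rxra and Rxrg) and none fell, against 44.9% of all genes (21.4% rose and 23.6% fell). By edgeR, 0 of the 8 were called between E18.5 and PN2 (background 0.0296%), between PN14 and PN28 (0.0178%) and between PN28 and adult (0.521%), while 3, 2 and 3 of them had an unadjusted p under 0.05 in these intervals, as did 6.64%, 8.41% and 18.3% of all genes. The exact test of edgeR and the Wald test of DESeq2 also called 0 of the 8 in these 3 intervals. The median log2 difference of the 8 was 0.43 between PN2 and PN14 and 1.32 between E18.5 and adult, beside -0.01 and -0.05 for all genes. With library size alone the split was 1 that rose (Thrb) and 1 that fell (Thra) between PN2 and PN14, and 3 that rose (Thrb, Slc16a10 and Rxra) and 3 that fell (Thra, Dio2 and Dio3) between E18.5 and adult. Of all genes, that scaling called 5.06% as higher and 29.4% as lower in the shorter interval, and 7.98% and 45.6% in the longer one. Thrb was thus called as higher by both scalings in both comparisons, and Slc16a10 and Rxra in the longer one. Calls of Thra, Dio2, Dio3 and Rxrg, and of Slc16a10 in the shorter interval, differed between the scalings. The fit with library size alone also estimated the spread between libraries anew, so its calls can differ from the main ones by more than the scaling.

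**Figure D1:**
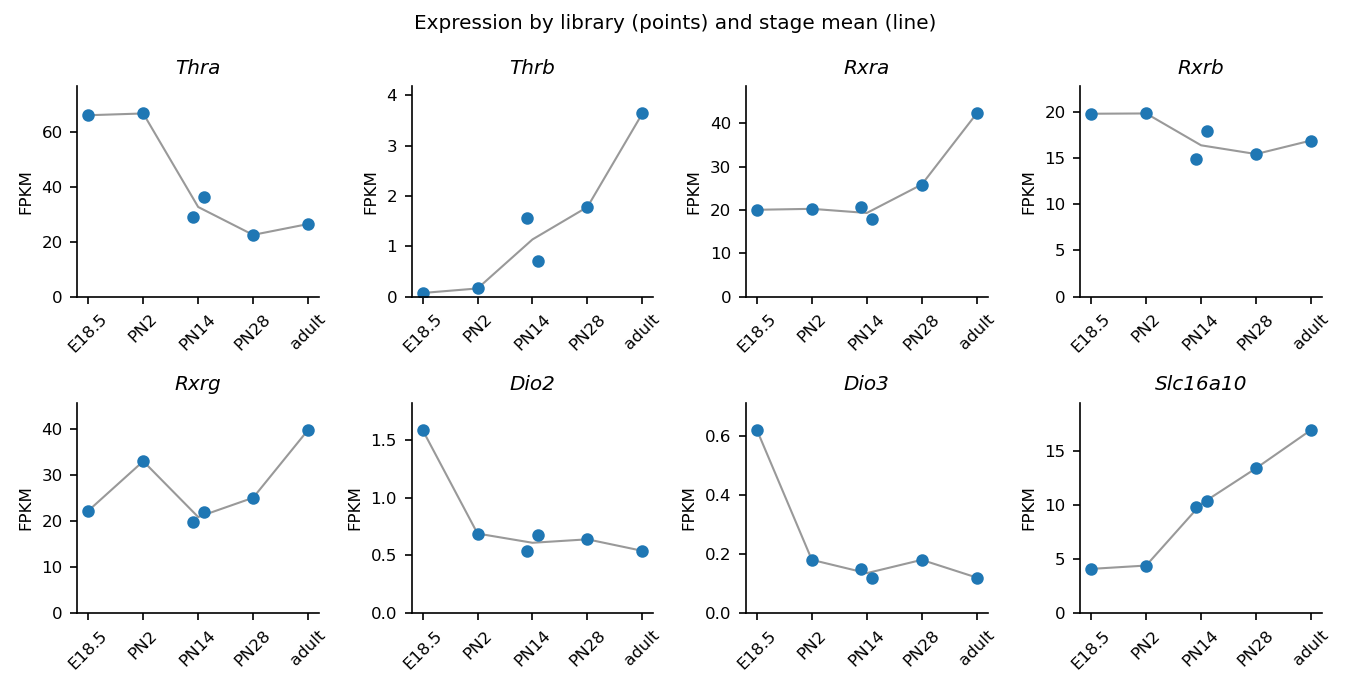
Level in FPKM (y axis, from 0) of the 8 genes at each stage (x axis), with 1 point per library and a line through the stage values (the mean of the pair at PN14). Thrb climbed from 0.07 to 3.64 FPKM and Slc16a10 from 4.08 to 16.93 FPKM, Thra was lower from PN14 onward on this scale, and Dio2 and Dio3 were highest at E18.5.

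**Figure D2:**
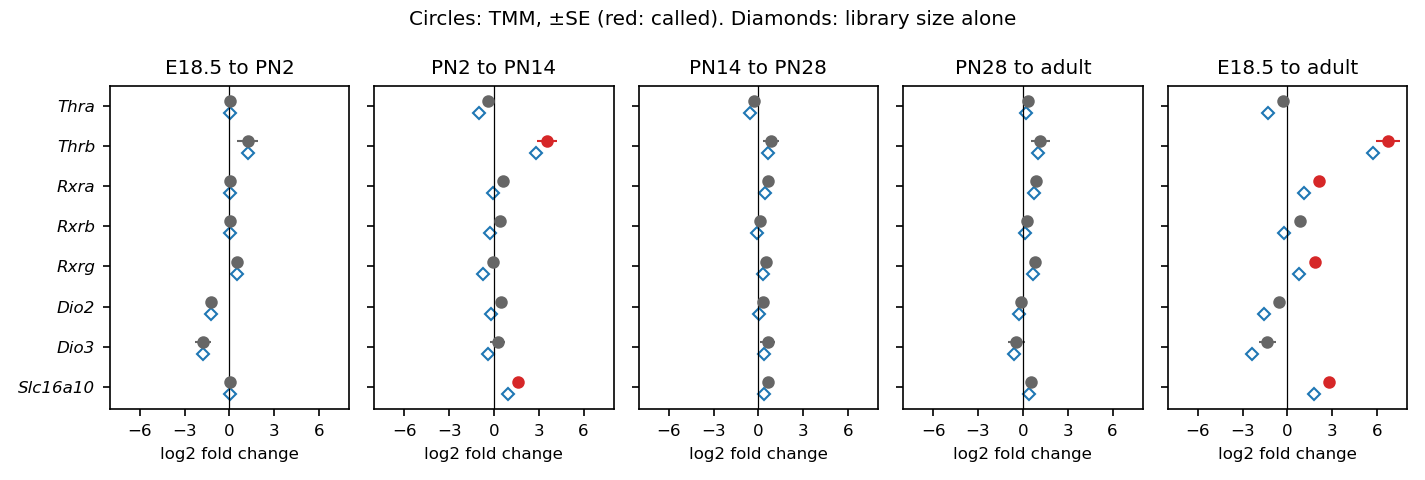
Log2 fold change (x axis) of each gene in 4 consecutive intervals and between E18.5 and adult, with circles for TMM scaling (bars, ±1 SE; red, called) and diamonds for library size alone. Thrb lies furthest to the right between PN2 and PN14 (3.53) and between E18.5 and adult (6.74), and the diamonds of these comparisons lie to the left of the circles, across 0 for Rxra, Rxrb, Dio2 and Dio3 between PN2 and PN14 and for Rxrb between E18.5 and adult.

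Thra (chr11:98601952-98630320, plus strand, mm9) encodes the thyroid hormone receptor alpha proteins and gave most of the receptor RNA in every library. Its level was 66.07 FPKM at E18.5 and 66.72 at PN2, then 28.85 and 36.41 for the PN14 pair (32.6 ± 5.35, SD, n = 2), 22.46 at PN28 and 26.41 at 22 weeks. The 4 libraries from PN14 onward all lay below both earlier ones on this scale. After TMM scaling the values were closer, at 99.9 and 100.9 normalized CPM at E18.5 and PN2, 75.4 and 79.5 at PN14, 62.9 at PN28 and 81.3 at 22 weeks. The log2 difference between PN2 and PN14 was -0.38 ± 0.18 (SE; edgeR adjusted p = 0.157), and with library size alone it was -1.03 (edgeR adjusted p = 0.00291). Over the whole period from E18.5 to adult it was -0.30 ± 0.21 by TMM (edgeR adjusted p = 0.279) and -1.32 by library size (edgeR adjusted p = 0.000889). A fall of Thra was therefore called as a share of all counts but not relative to the bulk of other genes.

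Alternative splicing at the 3' end of Thra makes a receptor that binds the hormone and a longer form that is known not to bind it, and the gene counts do not separate them. Both forms are from the GENCODE annotation, whereas the counts used RefSeq gene models, and whether those models hold both forms was not checked. The sequences at the point where the coding regions part are shown because they mark where the annotated forms differ. The lower case bases (chr11:98625710-98625719) are common to both, and the capitals belong to 1 form each.
Thra-003 (alpha1, 410 codons): gctgatgaagGTGACTGACCTCCGCATGAT
Thra-001 (alpha2, 492 codons): gctgatgaagGAGAGAGAAGTGCAGAGTTC
The capitals of the first form read on in the same exon (chr11:98625720-98625739), and those of the second lie in the last exon (chr11:98629471-98629490). The forms share 1110 coding bases, out of 1233 and 1479. In the same annotation that last exon also shares 263 bases (chr11:98629471-98629733) with Nr1d1, a gene on the opposite strand that encodes the clock repressor REV-ERB alpha. These are 5.7% of the exonic bases annotated for Thra, not of the gene model that was counted. Nr1d1 stood at 7.86 FPKM at E18.5, 13.54 at PN2, 25.11 and 20.63 for the PN14 pair, 16.11 at PN28 and 41.33 at 22 weeks, and rose between PN2 and PN14 by a log2 difference of 1.43 ± 0.28 (edgeR adjusted p = 0.0163), a call that was lost with library size alone (0.76, edgeR adjusted p = 0.0574). The ratio of Nr1d1 to Thra FPKM went from 0.119 at E18.5 to 1.56 in the adult. Whether the counting used strand is not stated in the sources used here, so reads from the shared bases cannot be told apart.

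Thrb (chr14:18493474-18870602, plus strand) encodes the thyroid hormone receptor beta proteins, which mediate much of the feedback in the pituitary and the response in liver. It was the gene with the largest difference of the 8. Its level was 0.07 FPKM at E18.5, 0.16 at PN2, 1.57 and 0.70 for the PN14 pair (1.14 ± 0.615, SD, n = 2), 1.78 at PN28 and 3.64 at 22 weeks, on 65, 150, 1175, 628, 1579 and 3098 counts. Both PN14 libraries lay above PN2 and below PN28, although replicate 1 was close to PN28. Thrb rose between PN2 and PN14 by a log2 difference of 3.53 ± 0.66 (11.6-fold, edgeR adjusted p = 0.0149), and between E18.5 and adult by 6.74 ± 0.81 (107-fold, edgeR adjusted p = 0.00205). Library size alone gave 2.82 for the earlier interval (edgeR adjusted p = 2.05e-06) and 5.72 for the whole period, and the direction was the same. The 2 fits estimated the spread separately (SE 0.66 by TMM and 0.54 with library size alone in the earlier interval). The smaller p-value of the second fit is therefore not a measure of stronger evidence.

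The neighbouring steps of Thrb were not called: the log2 difference was 1.22 ± 0.71 between E18.5 and PN2 (edgeR adjusted p = 0.925), 0.83 ± 0.52 between PN14 and PN28 (0.689) and 1.17 ± 0.62 between PN28 and adult (0.387). The PN14 mice differed more in Thrb than in the other 7 genes. Without replicate 1 the difference between PN2 and PN14 was 2.65, and without replicate 2 it was 4.08, while that between PN14 and PN28 was 1.71 and 0.28. The summed FPKM of 4 Schwann cell markers was 213.6 in replicate 1 and 851.4 in replicate 2, and that of 5 myofibre markers was 119200 and 98170. Their part in the Thrb values was not tested.

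Set against each other in the same library, where no scaling between libraries enters, Thra and Thrb drew together with age. Thra stood 944-fold above Thrb in FPKM at E18.5 (881 to 1020 within the rounding of the FPKM values) and 417-fold at PN2 (404 to 430). The ratio was 18.4 and 52.0 for the PN14 pair, 12.6 at PN28 and 7.26 at 22 weeks. In shares, Thrb made 0.106% of the summed receptor FPKM at E18.5, 0.239% at PN2, 5.16% and 1.89% at PN14, 7.34% at PN28 and 12.1% at 22 weeks. The libraries from PN14 onward did not overlap with the earlier ones, and the PN14 pair spanned a range that nearly reached PN28. The summed FPKM of the 2 genes was 66.1 and 66.9 at E18.5 and PN2 and between 24.2 and 37.1 in the later libraries. The coding sequences of Thra and Thrb were identical at 76.0% of 1224 aligned bases and shared no window of 100 bases, the read length, so every coding window of that length differed between the genes.

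Retinoid X receptors are the obligate partners of many nuclear receptors and carry no specificity for thyroid hormone of their own. Rxra (chr2:27531960-27618477, plus strand) was at 20.03 FPKM at E18.5, 20.25 at PN2, 20.66 and 17.93 at PN14 (19.3 ± 1.93, SD, n = 2), 25.86 at PN28 and 42.28 at 22 weeks. The first 4 libraries lay between 17.93 and 20.66 FPKM and the adult was above all others. Rxra rose between E18.5 and adult by a log2 difference of 2.10 ± 0.32 (4.3-fold, edgeR adjusted p = 0.0037), and by 1.08 with library size alone, where it was also called. No single interval was called, with log2 differences of 0.60 ± 0.28 between PN2 and PN14 (edgeR adjusted p = 0.142), 0.64 ± 0.26 between PN14 and PN28 (0.599) and 0.85 ± 0.31 between PN28 and adult (0.237). With library size alone the value between PN2 and PN14 was -0.07, on the other side of 0.

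Rxrg (chr1:169528515-169569754, plus strand), the RXR gene known to be most restricted to muscle and brain, was at 22.23 FPKM at E18.5, 33.0 at PN2, 19.69 and 22.06 at PN14 (20.9 ± 1.68, SD, n = 2), 25.06 at PN28 and 39.8 at 22 weeks. In FPKM PN2 and adult were thus the high libraries and E18.5 fell beside the PN14 pair. In normalized CPM E18.5 was lowest at 27.8, PN2 (40.3) was level with the PN14 pair (40.3 and 37.7), and PN28 (55.4) and adult (97.7) were above them. Rxrg rose between E18.5 and adult by a log2 difference of 1.81 ± 0.21 (3.52-fold, edgeR adjusted p = 0.00186), a call that was lost with library size alone (0.79, edgeR adjusted p = 0.0675). The step from PN28 to adult was 0.82 ± 0.20 (edgeR adjusted p = 0.125, unadjusted p = 0.00705 in the same edgeR fit), and that from E18.5 to PN2 was 0.54 ± 0.20 (0.696). Between PN2 and PN14 the value was -0.05 ± 0.17 by TMM (edgeR adjusted p = 0.851) and -0.70 with library size alone (edgeR adjusted p = 0.0665).

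Rxrb (chr17:34168757-34175338, plus strand), the broadly expressed member, varied least of the 8 in FPKM. It stood at 19.85 at E18.5, 19.88 at PN2, 14.91 and 17.93 at PN14 (16.4 ± 2.14, SD, n = 2), 15.47 at PN28 and 16.94 at 22 weeks, and the later stages lay within the range of the PN14 pair on this scale. In normalized CPM both later stages, at 48.0 and 57.4, lay above the PN14 pair (43.5 and 43.8). From E18.5 to adult the log2 difference was 0.82 ± 0.20 (edgeR adjusted p = 0.0159), under the size needed for a call, and its sign turned with library size alone. The same held between PN2 and PN14, at 0.40 ± 0.17 by TMM (edgeR adjusted p = 0.126). Within each library, Rxrb made 32.0% of the summed RXR FPKM at E18.5, 27.2% at PN2, 27.0% and 31.0% at PN14, 23.3% at PN28 and 17.1% at 22 weeks. Over the same libraries the share of Rxra was 32.2%, 27.7%, 37.4%, 31.0%, 39.0% and 42.7%, and that of Rxrg lay between 35.6% and 45.1%. Rxra and Rxrb were level at E18.5, at PN2 and in replicate 2 at PN14, and Rxra was the higher gene in replicate 1 and at both later stages. The summed RXR FPKM divided by the summed Thra and Thrb FPKM was 0.939 at E18.5, 1.09 at PN2, 1.82 and 1.56 at PN14, 2.74 at PN28 and 3.3 at 22 weeks, with the PN14 pair apart from the stages on both sides.

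**Figure D3:**
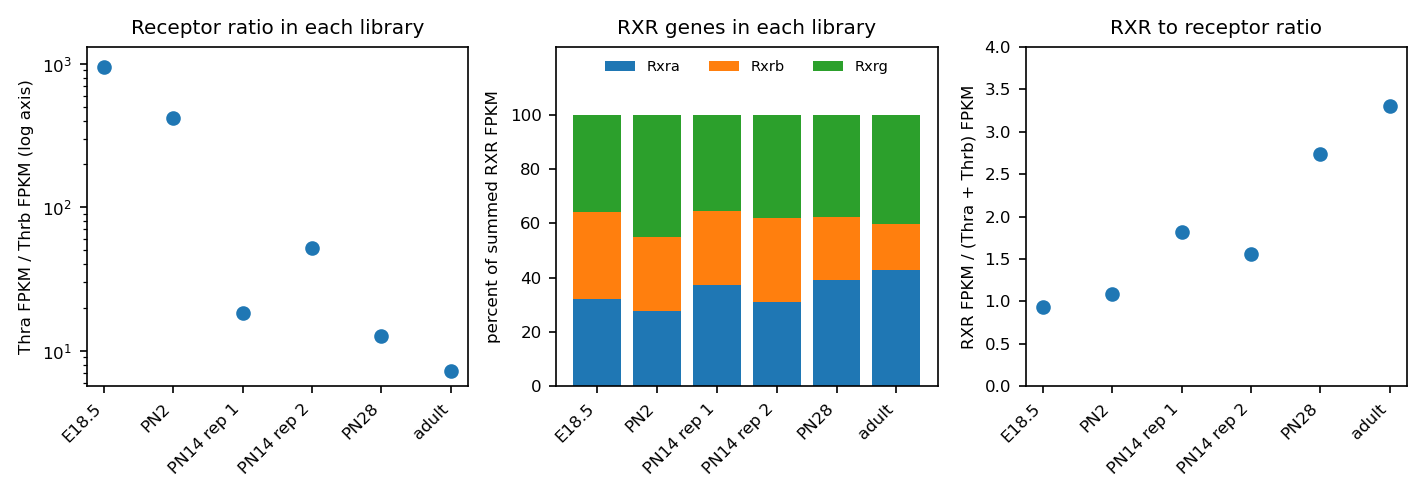
Left, Thra FPKM divided by Thrb FPKM in each library (log axis; bars, the range left by rounding, which is narrower than most points). Middle, share of each RXR gene in their summed FPKM (percent). Right, summed FPKM of the RXR genes divided by that of Thra and Thrb. The receptor ratio dropped from 944 to 7.26, Rxrb went from 32.0% to 17.1%, and the ratio of RXR to receptor FPKM went from 0.939 to 3.3.

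Slc16a10 (chr10:39753341-39862062, minus strand) was at 4.08 FPKM at E18.5, 4.39 at PN2, 9.83 and 10.34 at PN14 (10.1 ± 0.361, SD, n = 2), 13.39 at PN28 and 16.93 at 22 weeks. The order followed age, and the PN14 pair was close together and apart from both neighbouring stages. Slc16a10 rose between PN2 and PN14 by a log2 difference of 1.62 ± 0.19 (3.08-fold, edgeR adjusted p = 0.00578), and between E18.5 and adult by 2.80 ± 0.22 (6.96-fold, edgeR adjusted p = 0.00123). With library size alone the shorter interval gave 0.97 (edgeR adjusted p = 0.018), just under the size needed, and the longer one 1.78, which was called. The steps from E18.5 to PN2 (0.04 ± 0.21), PN14 to PN28 (0.62 ± 0.17, edgeR adjusted p = 0.517) and PN28 to adult (0.52 ± 0.21, 0.261) were not called.

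Markers of some other cells were lower in the later libraries. The summed FPKM of 3 satellite cell markers went from 59.6 at E18.5 and 53.0 at PN2 to between 6.82 and 17.6 later, and that of 5 fibroblast markers from 4412 and 3508 to between 437.7 and 1477, with no marker of either list at 0. Their part in the Slc16a10 and Thra values was not tested.

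The gene length that links counts to FPKM was not constant for Slc16a10. RSEM uses a mean over transcripts weighted by their abundance, and the value recovered from counts and FPKM was 5165 bases at E18.5, 4920 at PN2, 4135 and 4225 at PN14, 4120 at PN28 and 4261 at 22 weeks. The highest was 1.254 times the lowest, which exceeded 99.6% of 9916 genes with at least 100 counts and 1 FPKM in every library (median 1.002). The shorter weighted length at later stages makes the rise between E18.5 and adult 2.05 on log2 FPKM but 1.78 on log2 count share. Rxrg (1.056) and Rxrb (1.029) had smaller differences, those of Thra and Rxra were 1.001, and the values of Thrb, Dio2 and Dio3 were within the rounding of FPKM. Transcript values were not analysed here.

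**Figure D4:**
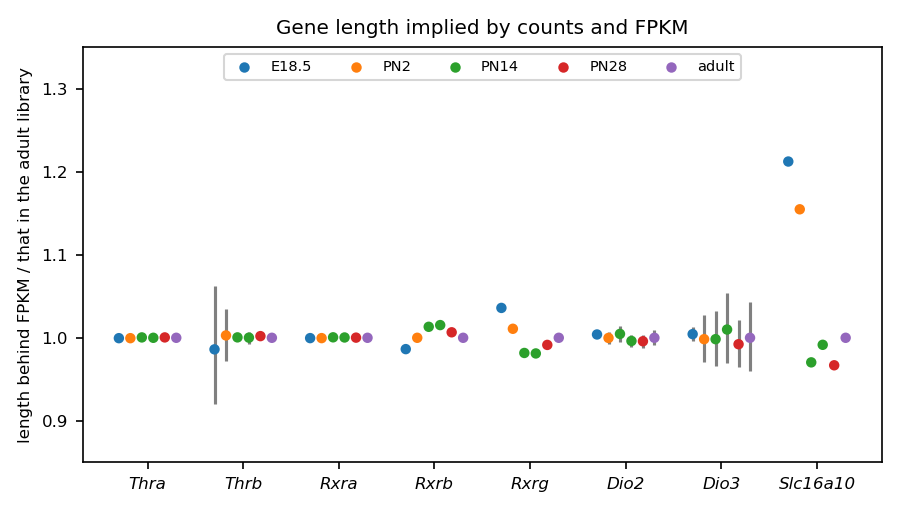
Gene length implied by the counts and the FPKM of each library, divided by that in the adult library (y axis), for the 8 genes (x axis), with 1 point per library in order of age and grey bars for the range left by rounding. Slc16a10 at E18.5 and PN2 stands above all other points of these genes.

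Dio2 and Dio3 were the lowest of the 8 genes in every library, apart from Thrb at E18.5 and PN2. Both are selenoproteins, and their messages carry UGA codons inside the reading frame that are read as selenocysteine, which in the active site is needed for deiodination. The codon near the end of Dio2 lies outside the active site. The coding bases around them are shown, written as DNA from 5' to 3' with the codon in capitals, because both members have this feature in common and the annotation keeps these codons inside the coding sequence.
Dio2 codon 130: ggttcagccaccTGAccacctttcact
Dio2 codon 263: ttcagcaagagaTGAattctagattag
Dio3 codon 170: ggcagctgtaccTGAccaccgttcatg
The first and second lie at chr12:91968251-91968277 and chr12:91967852-91967878 on the minus strand, and the third at chr12:111517937-111517963 on the plus strand. The coding sequences were identical at 63.0% of 759 aligned bases, with no shared window of the read length.

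Dio2 (chr12:91962994-91976878, minus strand) was at 1.59 FPKM at E18.5, 0.69 at PN2, 0.54 and 0.68 at PN14 (0.61 ± 0.099, SD, n = 2), 0.64 at PN28 and 0.54 at 22 weeks. The E18.5 library was the high one and the other 5 lay between 0.54 and 0.69 FPKM. The log2 difference between E18.5 and PN2 was -1.21 ± 0.30 (edgeR unadjusted p = 0.00699, adjusted p = 0.392), and between E18.5 and adult it was -0.54 ± 0.30 (edgeR adjusted p = 0.17), or -1.56 with library size alone (edgeR adjusted p = 0.0173). By TMM the difference between PN2 and PN14 was 0.47 ± 0.26 (edgeR adjusted p = 0.209), and its sign turned with library size.

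Dio3 (chr12:111517278-111519307, plus strand) was at 0.62 FPKM at E18.5, 0.18 at PN2, 0.15 and 0.12 at PN14 (0.135 ± 0.0212, SD, n = 2), 0.18 at PN28 and 0.12 at 22 weeks. These levels rest on 178, 51, 34, 33, 48 and 31 counts, so that the 5 libraries after birth differed by few reads. The log2 difference between E18.5 and PN2 was -1.79 ± 0.55 (edgeR unadjusted p = 0.0177, adjusted p = 0.557). In the adult against E18.5 it was -1.35 ± 0.56 (edgeR adjusted p = 0.087), which was called as a fall by edgeR's exact test (adjusted p = 0.0481) and with library size alone (-2.37, edgeR adjusted p = 0.006). Between PN2 and PN14 the value was 0.25 ± 0.50 by TMM (edgeR adjusted p = 0.721), and its sign turned with library size. The ratio of Dio2 to Dio3 FPKM within a library was 2.56 at E18.5, 3.83 at PN2, 3.6 and 5.67 at PN14, 3.56 at PN28 and 4.5 at 22 weeks, and no other library lay outside the range of the PN14 pair except E18.5 and, by a small margin, PN28. Dio1, the deiodinase of liver and kidney, was at 0.03 FPKM or less in all 6 libraries and did not pass the filter.

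Ranked by FPKM, the order of the 8 genes differed between the ends of the series. At E18.5 Thra led at 66.07, Rxrg (22.23), Rxra (20.03) and Rxrb (19.85) followed, and Slc16a10 (4.08), Dio2 (1.59), Dio3 (0.62) and Thrb (0.07) came last. In the adult Rxra (42.28) and Rxrg (39.8) led, Thra (26.41) was next, Rxrb (16.94) and Slc16a10 (16.93) were level, and Thrb (3.64) stood above Dio2 (0.54) and Dio3 (0.12). Thrb thus went from the last place to above both deiodinases.

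Other genes of the pathway were read as 4 lists, whose counts stand beside 11.8% of all genes that rose and 11.2% that fell between PN2 and PN14, and 21.4% and 23.6% between E18.5 and adult (with library size alone, 5.06% and 29.4%, and 7.98% and 45.6%). Of the 19 hormone-responsive genes, 9 rose and 2 fell between PN2 and PN14, with a median log2 difference of 1.84 beside -0.01 for all genes (with library size alone, 11 rose and 2 fell, median 1.16 beside -0.66). The rises called only with library size alone were Myh4 (7.09 by TMM, 6.42 in that fit) and Atp2a1 (3.0 and 2.36). Their differences were smaller in that fit, which estimated the spread anew. Hr, which encodes the corepressor hairless and is a direct target in brain, was at 0.38, 0.99, 16.79, 12.87, 16.96 and 16.89 FPKM from E18.5 to adult, and rose by a log2 difference of 4.59 ± 0.38 (edgeR adjusted p = 0.00333). Klf9, a transcription factor gene with a hormone response element, rose by 2.90 ± 0.37 (edgeR adjusted p = 0.00633), and Gpd2, the mitochondrial glycerol phosphate dehydrogenase gene, by 2.94 ± 0.39 (edgeR adjusted p = 0.00685). The 2 that fell were the neonatal and embryonic myosin genes, Myh8 (-7.10 ± 1.01, edgeR adjusted p = 0.00784) and Myh3 (-4.16 ± 0.56, edgeR adjusted p = 0.00703). The 8 not called were Myh4 (7.1), Atp2a1 (3.0), Myh7 (1.5), Atp2a2 (0.8), Ppargc1a (0.8), Thrsp (0.6), Myod1 (-0.1) and Ucp2 (-0.3). The list was not split by the direction in which the hormone acts on each gene, so its counts and median do not measure a response to it. By adulthood 11 of the 19 were called as higher than at E18.5 and 3 as lower, with a median of 2.57 beside -0.05 (11 and 4 with library size alone). Many of these genes mark fibre maturation in general, the summed FPKM of the 5 myofibre markers went from 34380 at PN2 to 119200 and 98170 at PN14, and the part of that shift, or of the hormone, in these values was not tested.

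Of the list for transport, binding and deiodinase accessory factors, 10 genes were tested, and 1 fell and none rose between PN2 and PN14 (median -0.19), or 4 fell with library size alone. It was Slc7a5, whose product carries amino acids and thyroid hormone, which went from 20.55 FPKM at PN2 to 3.02 ± 0.509 (SD, n = 2) at PN14 (log2 difference -2.12 ± 0.16, edgeR adjusted p = 0.00317). In the comparison of E18.5 with adult 4 of the 10 fell, or 6 with library size alone. By TMM they were Slc7a5 (-2.46, edgeR adjusted p = 0.00124) and Usp20 (-1.12, edgeR adjusted p = 0.00934), with Crym and Wsb1. Crym encodes a hormone-binding protein of the cytosol (-1.97, edgeR adjusted p = 0.00267), and the product of Wsb1 takes part in the turnover of Dio2 (-2.45, edgeR adjusted p = 0.00199).

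Of 14 receptor coregulators, 1 rose and none fell between PN2 and PN14 (median 0.07), against none and 4 with library size alone, so that their direction depended on the scaling. The gene that rose was Kat2b, a histone acetyltransferase gene (1.31 ± 0.28, edgeR adjusted p = 0.0208). The corepressor gene Ncor1 (0.03 ± 0.22, edgeR adjusted p = 0.924) was among the genes not called in this interval. Of the same 14, 5 rose and none fell between E18.5 and adult, against 1 and 2 with library size alone. By TMM the 5 were Kat2b (2.8), Gps2 (1.8), Nrip1 (1.3), Hdac3 (1.3) and Carm1 (1.1), while Ncor1 (0.62, edgeR adjusted p = 0.0872) was not called. Of 13 other partners of RXR, 1 rose and none fell between PN2 and PN14 (median 0.53), against 2 and 1 with library size alone, and 5 rose and 2 fell between E18.5 and adult, against 4 and 4. Some of these calls by TMM rest on very low levels. Between E18.5 and adult Nr1h4 went from 0.0 to 0.04 FPKM, Nr1i3 from 0.01 to 0.09 and Vdr from 0.75 to 0.01. The partner gene that rose by TMM between PN2 and PN14 was Nr1h3, the gene of the oxysterol receptor LXR alpha (1.99 ± 0.29, edgeR adjusted p = 0.00806).

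**Figure D5:**
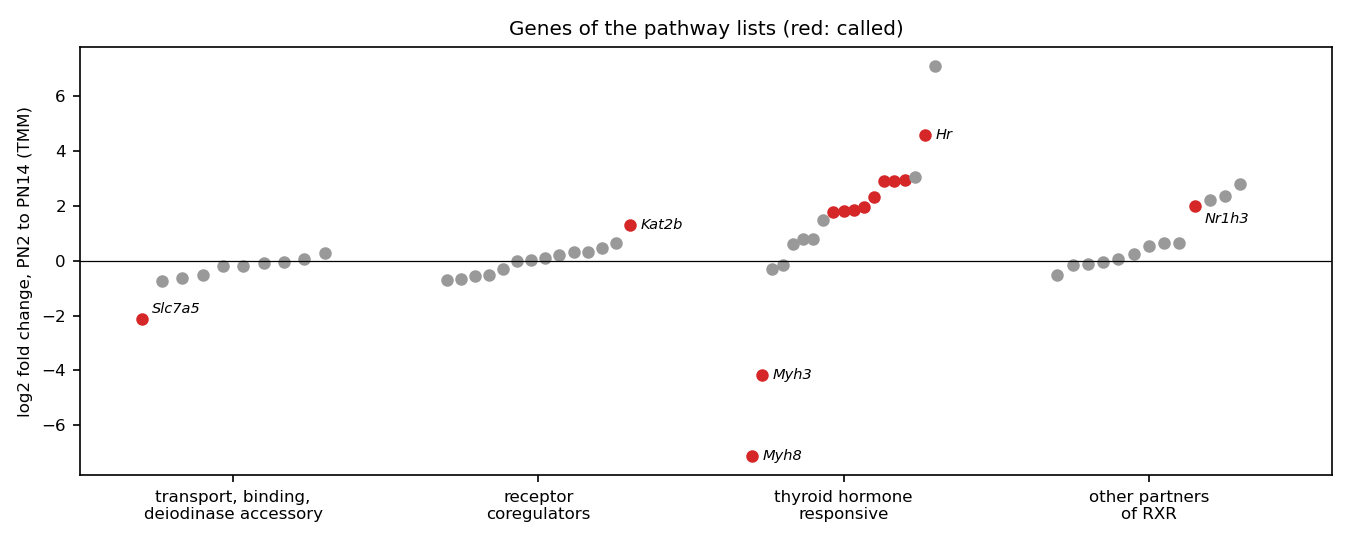
Log2 fold change between PN2 and PN14 by TMM (y axis) of each tested gene in the 4 lists (x axis), sorted within a list (red, called). In the list of hormone-responsive genes 9 red points lie above 0 and 2 below, while the other 3 lists hold 1 red point each.

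Similarity of profile was measured as the root mean square difference of log2(normalized CPM + 0.1), each gene centred on its own mean, over the 6 libraries. The nearest genes to Thrb were Magix (0.196) and Phka1 (0.197), the latter encoding the muscle form of a phosphorylase kinase subunit, and no gene lay within 0.15 of Thrb. The Thrb profile had the largest SD over the libraries (2.28, beside 0.236 for Thra), and a fixed cutoff is harder to meet for so steep a profile. Phka1 was at 6.89, 9.49, 99.84, 53.2, 113.96 and 201.1 FPKM from E18.5 to adult, with replicate 1 above replicate 2 at PN14 as in Thrb. Both PN14 libraries entered the choice of nearest genes, so this shared order is not a separate observation. Slc16a10 was nearest to Cmss1 (0.0667) and C920025E04Rik (0.0945), Rxra to Qser1 (0.0622) and Dazl (0.0629), and Rxrg to Prelp (0.0523) and Herc2 (0.0937). Dio2 was nearest to Mif (0.0914) and Tmprss4 (0.1), and Dio3 to P4ha1 (0.112) and Acer2 (0.123). Tmprss4 was at only 0.01 to 0.08 FPKM and Dazl at 0.04 to 0.17 FPKM, so these profiles rest on very low levels. Rxrb was nearest to Polr2j (0.0265) and Denr (0.0317), and Thra to Bahcc1 (0.0438) and Smek1 (0.0474), but 1043 and 604 genes lay within 0.15 of these flat profiles.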

How the data were processed

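Polyadenylated RNA from 6 gastrocnemius libraries was analysed at the gene level. The authors aligned the paired reads to mm9 with TopHat2 (2.0.5) and made expected counts per RefSeq gene model with RSEM, which they deposited as whole numbers without normalization. The deposited FPKM values, also from RSEM, are scaled by the length of the gene and by the library total on genes, and are given to 2 decimals. The expected counts were tested in R 4.3.3 with edgeR 4.0.16 (TMM, filterByExpr by stage, quasi-likelihood test, 5 stages in 1 fit, 16882 of 23367 genes). Only the PN14 pair gave a residual degree of freedom (1, with a median prior of 4.86 and a common biological coefficient of variation of 0.188), so the p-values assume that other stages vary as PN14 does. The SE of each log2 difference was derived from that test, as the size of the difference divided by the square root of the F statistic, and rests on the same assumption. The members and lists were chosen with earlier results of these data known. Named were all members, the up to 3 called genes of each list with the largest log2 difference between PN2 and PN14, the 2 genes of nearest profile and genes that overlap a member. Further list genes were chosen after their values were seen. They were Klf9, Gpd2, Crym, Wsb1, Usp20, Ncor1, Gps2, Nrip1, Hdac3, Carm1, Nr1h4, Nr1i3, Vdr and the hormone-responsive genes not called. Some genes of the pathway are not reported here and were taken out of the lists. Of 14 genes in the transport list, 13 were matched, and Dio1, Ttr and Serpina7 were not tested, nor was Nr1i2 among the partners of RXR. Coordinates and sequences came from GENCODE M1 on mm9, read with Python 3.11.15 and Biopython 1.88. Alternatives were library size alone, DESeq2 size factors, DESeq2's Wald test (1.42.0), edgeR's exact test, no filter, and either PN14 library left out. The fit with library size alone estimated the spread between libraries anew, so its p-values are not on the same footing as the main ones. A plain ratio of FPKM was added after seeing the data. Splicing, transcript and protein data were not analysed here.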

Additional observations from a re-analysis of the deposited data

How the results depend on the processing

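The number of the 8 genes called in each of the 5 comparisons stayed within 1.5 times the main count under every alternative run, although library size alone changed which genes were called. DESeq2 size factors, DESeq2's Wald test and no filter called as many genes in each direction as the main test in all 5 comparisons, and edgeR's exact test added Dio3 between E18.5 and adult. The sign differed from the main value in 6 of 40 differences under library size alone and in 6 of 40 with a plain ratio of FPKM, in none of 40 under the 4 other fits, and in 1 of 16 without either PN14 library. Each such sign change was in a difference that the main test did not call. Leaving out a PN14 library moved Thrb between PN2 and PN14 from 2.65 to 4.08 and Slc16a10 from 1.55 to 1.70, and at PN14 the ratio of Thrb to Thra ranged from 0.0192 to 0.0544 and that of Dio3 to Dio2 from 0.176 to 0.278. These values carry no test, since no residual degree of freedom was left. No paired analysis was possible because every stage but PN14 had 1 library and the stages came from different animals. Depth limits Dio3 most, with 31 to 178 counts per library.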

Other observations

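Dio3os, the noncoding gene beside Dio3, was looked at after its values were seen. Its level was 0.37 FPKM at E18.5, 0.04 at PN2, 0.32 (replicate 1) and 0.18 (replicate 2) at PN14, 0.41 at PN28 and 0.45 at 22 weeks, so PN2 was the low library. Between PN2 and PN14 it rose by a log2 difference of 3.45 ± 0.77 (edgeR's quasi-likelihood test, adjusted p = 0.0235), while Dio3 differed by 0.25 ± 0.50 (adjusted p = 0.721 in the same edgeR fit). Between E18.5 and PN2 the log2 difference of Dio3os was -3.32 ± 0.82 (edgeR adjusted p = 0.392, unadjusted p = 0.00692), which was called as a fall with library size alone (edgeR adjusted p = 0.0259) and by edgeR's exact test (adjusted p = 0.00962). The PN2 level rests on 7 counts. The difference between these genes was not tested.

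Among the markers of other cell types, the adipocyte sum (4 markers) was at 1.45 FPKM at E18.5, where 1 marker was at 0, and between 13.4 and 98.5 in the later libraries. The erythroid sum (5 markers) was at 8936 FPKM at E18.5 and between 393.0 and 2211 later, and the macrophage sum (4 markers) was between 9.51 and 27.9. The endothelial sum (4 markers) was lowest in the adult at 53.3 FPKM and highest at 206.9 in replicate 2 at PN14. Dio2 and Dio3 were highest at E18.5, the library with the highest erythroid, macrophage, satellite cell and fibroblast sums. The part of these cells in their values was not tested.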
